A study of Mus musculus with 6 samples.

Results

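The 6 genes described here, Msh3, Msh6, Mlh3, Pms1, Pms2 and Exo1, encode proteins of DNA mismatch repair. They were taken by symbol from the 21887 protein-coding genes that the RefSeq table of GRCm38.p6 places on the nuclear chromosomes, and all 6 were found. Their chromatin was read from peak lists of wild-type B16 cells, a mouse melanoma line, made by CUT&Tag, in which an antibody directs a transposase to cut and tag nearby DNA. There were 2 lists, each from 1 library: H3K4me3, a histone mark of active promoters, and p300, a histone acetyltransferase of active promoters and enhancers. The 4 H3K9me3 libraries of wild-type, Tdg knockout, Trp53 knockout and double knockout cells are not analysed here, and genotypes are therefore not compared. With 1 library per antibody there is no replicate, and every comparison below is a description without a test. The cell type check found H3K4me3 at an end of 6 of 7 melanocyte genes and at an end of 0 of 6 epithelial, 0 of 2 endothelial, 1 of 5 lymphocyte (Cd4), 1 of 4 myeloid (Cd68) and 2 of 3 stromal genes (Col1a1 and Pdgfrb). Counting peaks inside the gene as well added Mlana to the melanocyte genes, Cdh1 to the epithelial, Pecam1 to the endothelial and Col3a1 to the stromal genes.

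Mismatch repair removes bases that the replication polymerase paired wrongly, and the small loops left when it slips on repeats. MutS complexes find the error, MutL complexes cut the new strand, and an exonuclease clears it for resynthesis. Msh6 and Msh3 are the subunits that set what a MutS complex binds, Msh6 mainly single mispairs and Msh3 mainly loops. Pms2 carries the nuclease of the main MutL complex, Mlh3 that of a MutL complex used in meiotic crossing over, and Pms1 forms a further MutL complex whose role is less clear. Exo1 is the exonuclease. The glycosylase TDG, which the series is about, also acts on thymine mispaired with guanine, a mispair that Msh6 complexes bind.

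A peak was taken as lying at a gene end when it reached within 1 kb of an annotated end, as inside when it overlapped the gene farther from both ends, and as nearby when it lay within 50 kb. The fold of a peak is the authors' ratio of its summit to a background, and −log10 q is its adjusted significance. Reads at the summit were solved from the fold and the −log10 p. Intervals on them are exact Poisson 95% intervals, which cover counting error only.

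The sequences before the starts of 3 members are shown first, because p300 lay at the start region of Pms2 and not at those of its MutL relative Pms1 or of the MutS gene Msh6. They are the 250 bases before the RefSeq start in GRCm38.p6, 5′ to 3′ on the strand of the gene. Capitals mark the GC box GGGCGG, bound by SP factors, and CCAAT, bound by NF-Y, on either strand. Msh6 is chr17:87974800-87975049 (plus), Pms2 is chr5:143909751-143910000 (plus) and Pms1 is chr1:53297029-53297278 (minus).
Msh6: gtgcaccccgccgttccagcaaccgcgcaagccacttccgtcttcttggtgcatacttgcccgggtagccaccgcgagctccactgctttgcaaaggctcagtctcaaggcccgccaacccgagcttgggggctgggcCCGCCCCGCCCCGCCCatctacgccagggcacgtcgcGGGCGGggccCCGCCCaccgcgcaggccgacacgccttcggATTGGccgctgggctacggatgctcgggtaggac
Pms2: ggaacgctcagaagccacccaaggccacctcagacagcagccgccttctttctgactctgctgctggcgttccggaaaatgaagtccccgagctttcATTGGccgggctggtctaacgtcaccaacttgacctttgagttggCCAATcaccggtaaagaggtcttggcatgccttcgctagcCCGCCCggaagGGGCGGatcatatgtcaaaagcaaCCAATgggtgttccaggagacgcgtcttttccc
Pms1: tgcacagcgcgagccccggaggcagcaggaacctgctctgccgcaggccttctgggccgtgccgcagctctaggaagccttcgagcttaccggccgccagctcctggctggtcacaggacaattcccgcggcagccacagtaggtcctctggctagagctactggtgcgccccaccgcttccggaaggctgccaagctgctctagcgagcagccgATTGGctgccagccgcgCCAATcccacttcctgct

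All 250 bases of each sequence lay inside an H3K4me3 peak. The p300 peak of Pms2 covered the 118 bases farthest from the start. Of the Pms2 sequence 89 bases also fall in the annotated span of Aimp2, and of the Pms1 sequence 184 fall in Ormdl1. The sequence of Msh6 lies in no other annotated gene. RefSeq places the start used for Pms2 100 bases inside the lower end of its annotated gene, so the distances from that end given below are not distances from this start.

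H3K4me3 lay at an end of all 6 members, against a background of 50.5% of protein-coding genes. For the 5 members whose strand is known this end was the start, and for Exo1, whose strand the tables do not give, it was the lower end. No member had a peak of either kind at its other end. None had an H3K4me3 peak farther inside the gene, where 21.6% of protein-coding genes had one. The mark was therefore found at 1 end of each gene, although the strength there differed several-fold in reads.

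**Figure D1:**
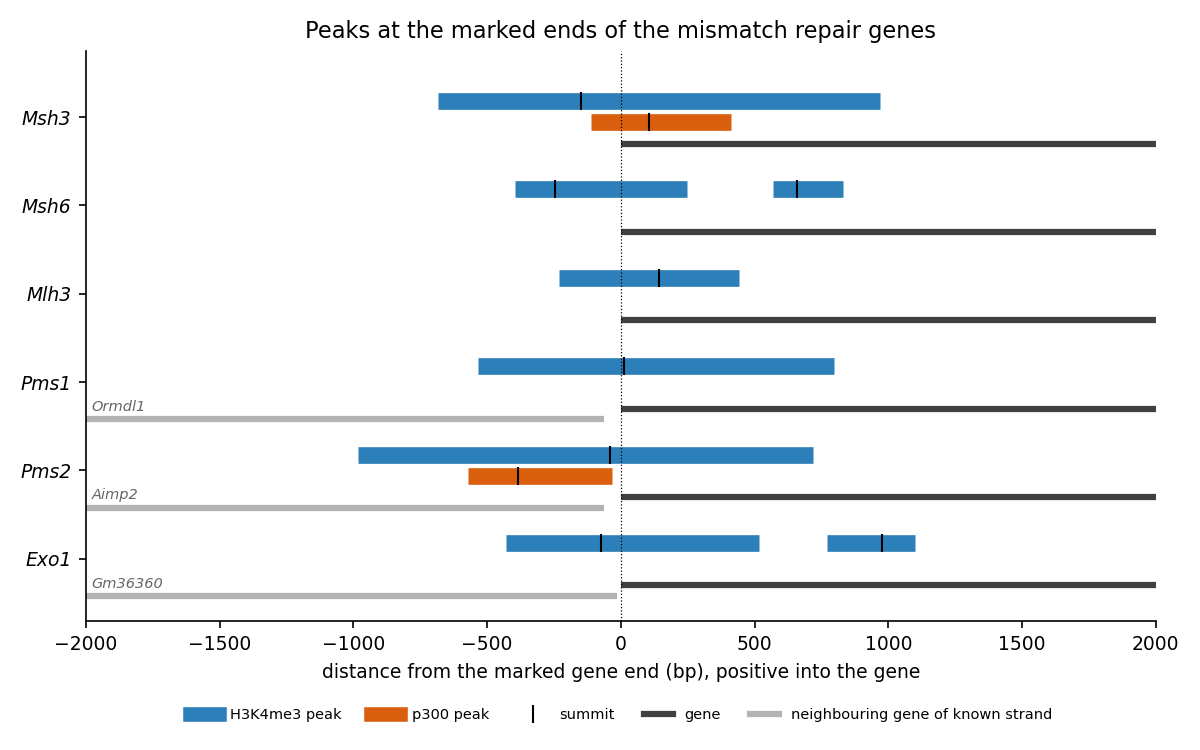
Peaks around the H3K4me3-marked end of each member; the x axis is the distance from that end in bp, positive into the gene, bars are peaks, ticks their summits, and dark and light lines the gene and a neighbouring gene of known strand. H3K4me3 crossed the end in all 6 genes, with a second, weaker peak inside Msh6 and Exo1, and p300 lay only at Msh3 and Pms2.

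The loop-binding MutS subunit gene Msh3 (chr13:92211878-92355004, minus strand) had an H3K4me3 peak of 1652 bp from 92354035 to 92355686. Its fold was 8.21 and its −log10 q 103. The summit held 191 reads (165 to 220) over a background of 22.4 and lay at −151 bp, counted from the marked end with positions outside the gene negative. Among the strongest end peaks of the 11045 marked protein-coding genes, it stood at percentile 65.2 by fold and 82.2 by −log10 q. The peak reached 682 bp outside the gene and 969 bp into it.

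The mispair-binding subunit gene Msh6 (chr17:87975050-87990892, plus strand) was marked more weakly and in 2 pieces. The first peak, 645 bp from 87974653 to 87975297, had a fold of 6.27, a −log10 q of 38.1 and 85 reads (67.9 to 105) at a summit at −247 bp. A second peak of 266 bp, fold 4.07 and 55 reads began 319 bp farther in. The stronger of the pair stood at percentile 32.4 by fold and 22.4 by −log10 q. Both MutS genes were marked, and the summit intervals of Msh3 and Msh6 did not overlap.

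The MutL genes held both the strongest and the weakest mark of the group by reads. Pms1 (chr1:53189187-53297031, minus strand) had a peak of 1334 bp from 53296234 to 53297567, with a fold of 11.5, a −log10 q of 161 and 239 reads (210 to 271). By −log10 q only 261 of the 27019 H3K4me3 peaks were stronger, and the summit lay 12 bp inside the gene. Pms2 (chr5:143909901-143972745, plus strand) had the widest peak of the group, 1703 bp from 143908919 to 143910621, with a fold of 8.0, a −log10 q of 106 and 200 reads (173 to 230). The Pms2 peak was close to that of Msh3 in width, fold and reads.

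Mlh3 (chr12:85234466-85270647, minus strand) showed how a fold can hide a low count. Its peak of 676 bp from 85270205 to 85270880 had a fold of 7.91, near those of Msh3 and Pms2. Its summit held 50 reads (37.1 to 65.9) over a background of 5.44, and its −log10 q was 28.3. Among marked genes it stood at percentile 60.4 by fold and 6.6 by summit reads.

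The exonuclease gene Exo1 (chr1:175880768-175911396) had a peak of 948 bp from 175880338 to 175881285, with a fold of 10.8, a −log10 q of 98.8 and 150 reads (127 to 176). Its fold stood at percentile 92.2 of marked genes. A second peak of 328 bp, fold 4.00 and 54 reads followed 254 bp farther in, as at Msh6. Of the marked protein-coding genes 22.7% had 2 or more H3K4me3 peaks at their ends, against these 2 of 6 members.

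Ordered by summit reads, the members ran Pms1, Pms2, Msh3, Exo1, Msh6, Mlh3. The intervals of neighbours in this order overlapped for Pms1 and Pms2, Pms2 and Msh3, and Msh3 and Exo1. They did not overlap for Exo1 and Msh6 or for Msh6 and Mlh3. The median over the 6 members was 170 reads, fold 8.11, −log10 q 101 and 1140 bp, beside 132 reads, 7.28, 63.8 and 1110 bp for all marked genes. A median of 6 genes that range from 50 to 239 reads does not set the group apart from marked genes in general.

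**Figure D2:**
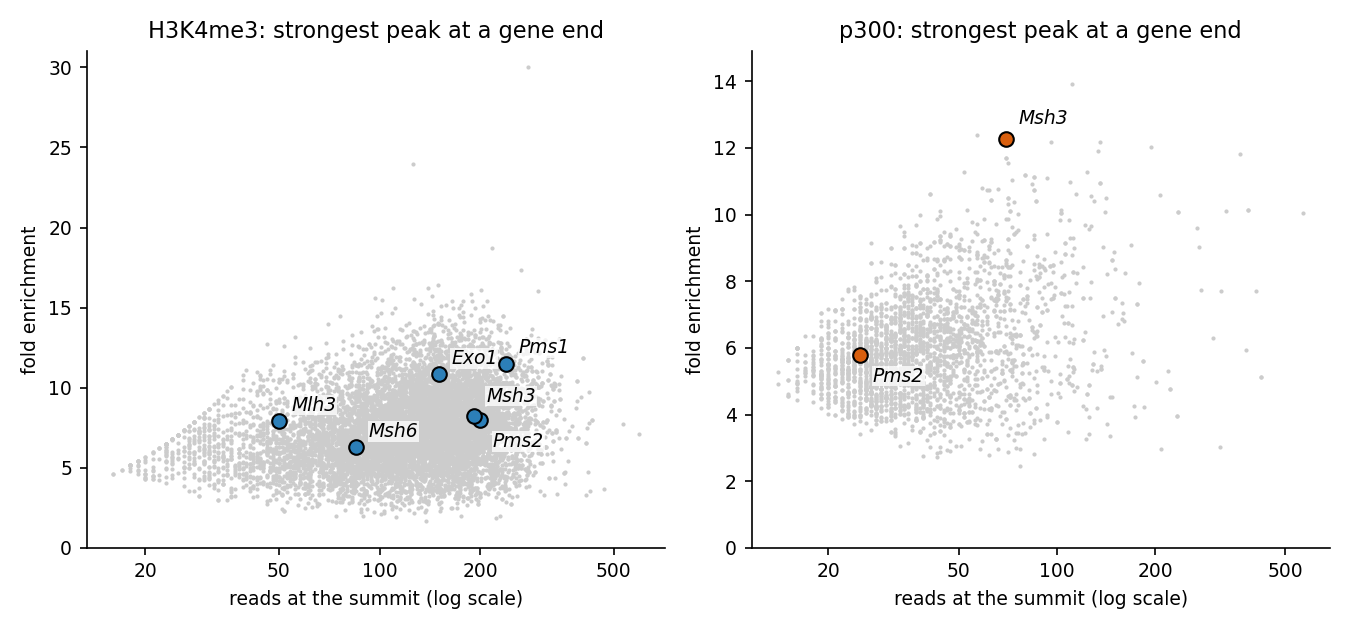
Fold enrichment (y axis) against reads at the summit (x axis, log scale) of the strongest peak at a gene end, for all marked protein-coding genes (grey) and the members (coloured and named); left H3K4me3, right p300. Mlh3 and Msh6 lie at 50 and 85 H3K4me3 reads and the other 4 members at 150 or more, while the p300 peak of Msh3 lies near the top of its panel at fold 12.3.

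In 4 of the 6 members the strongest end peak also came within 1 kb of an end of another gene, against 41.0% of marked protein-coding genes. Pms1 and Ormdl1, a regulator of sphingolipid synthesis, are separated by 63 bases. Pms2 and Aimp2, a scaffold of the tRNA synthetase complex, are separated by 61 bases, and Exo1 and the lncRNA gene Gm36360 by 12. Ormdl1 and Aimp2 lie on the strand opposite to Pms1 and Pms2, and Gm36360 lies on the minus strand. At Pms1, Pms2 and Exo1 the H3K4me3 peak cannot be assigned to 1 gene of the pair. The Msh3 peak came within 1 kb of an end of the pseudogene Gm19308.

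Msh6 and Mlh3, the members with the fewest summit reads, had no other gene at the marked end. The far end of Msh6 overlaps Fbxo11, a gene of the ubiquitin system, by 34 bp, and carried no peak. The part of a neighbouring gene in the reads at a shared end was not tested.

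p300 lay at an end of 2 of the 6 members, Msh3 and Pms2, against 13.5% of protein-coding genes and 26.5% of those with H3K4me3 at an end. Both peaks lay wholly within the H3K4me3 peak. A count of 2 in 6 is near the share of marked genes.

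The p300 peak at Msh3, 524 bp from 92354591 to 92355114, was among the strongest of its list. It had a fold of 12.3, a −log10 q of 51.6 and 70 reads (54.6 to 88.4) over a background of 4.78. Of the 6512 p300 peaks 27 had a higher fold and 465 a higher −log10 q, and its percentile among the 2957 genes so marked was 99.9 by fold and 95.8 by −log10 q. Its summit lay 105 bp inside Msh3, 256 bp from the H3K4me3 summit.

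The p300 peak at Pms2 was an ordinary one for its list. It spanned 538 bp from 143909331 to 143909868, with a fold of 5.80, a −log10 q of 10.8 and 25 reads (16.2 to 36.9). Among the genes so marked the fold stood at percentile 50.0 and the reads at percentile 15.3. The peak ended 33 bp before the annotated gene, and its summit, at −386 bp, lay in Aimp2. The read intervals of the Msh3 and Pms2 peaks did not overlap.

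Counting peaks in the gene and within 50 kb, p300 was found for 5 of the 6 members, against 44.2% of protein-coding genes and 62.8% of those marked by H3K4me3. There were 7 such p300 peaks, of which 5 overlapped H3K4me3, beside 85.5% of all p300 peaks. Exo1 was the member with none detectable at this depth.

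Pms1 had the only p300 peak inside a member, where 7.99% of protein-coding genes had one. It lay from 53195320 to 53195891, 6133 bp from the far end of the gene and 101140 bp from the marked end. Its fold was 7.28 and its summit held 31 reads (21.1 to 44.0), and no H3K4me3 peak overlapped it. The tables give no exons, so its place among exons and introns is not stated.

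The p300 peak near Msh6 lay in Fbxo11, from 88019021 to 88019757, 28129 bp beyond the far end of Msh6. It had a fold of 9.50 and 62 reads (47.5 to 79.5), and 205 p300 peaks had a higher fold. A small H3K4me3 peak of 246 bp and 24 reads overlapped 23.7% of it, away from its summit. The far end of Msh6 was the nearest end of a protein-coding gene, but the lower end of Fbxo11 lies only 33 bp farther away. From the marked end of Msh6 the peak was 43971 bp away.

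Mlh3 had 3 nearby p300 peaks, none nearer than 17092 bp. That peak, of fold 6.49 and 45 reads, covered the upper end of Acyp1, which encodes an acylphosphatase, together with an H3K4me3 peak of fold 8.69. The other two lay 30498 and 31987 bp beyond the far end, with folds of 4.45 and 3.56, and their nearest protein-coding gene end was that of Eif2b2, a translation initiation factor subunit. By fold, 96.2% of the p300 list was stronger than the last of these.

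Some of the nearby H3K4me3 peaks lay at ends of other genes, and others lay at no gene end. Which gene each peak belongs to was not tested. Mlh3 had 5 of these peaks, the strongest of fold 10.9 and 188 reads inside Acyp1 and Zc2hc1c, which overlap there. Another, of fold 7.72, lay at Eif2b2. Pms1 had 1 of fold 12.0 at Osgepl1, which acts in tRNA modification. Pms2 had 2 at Ccz1, of fold 4.73 and 9.25, and Exo1 had 1 of fold 7.60 and 27 reads, 14682 bp from the end of Pld5. Msh3 had none besides its own.

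**Figure D3:**
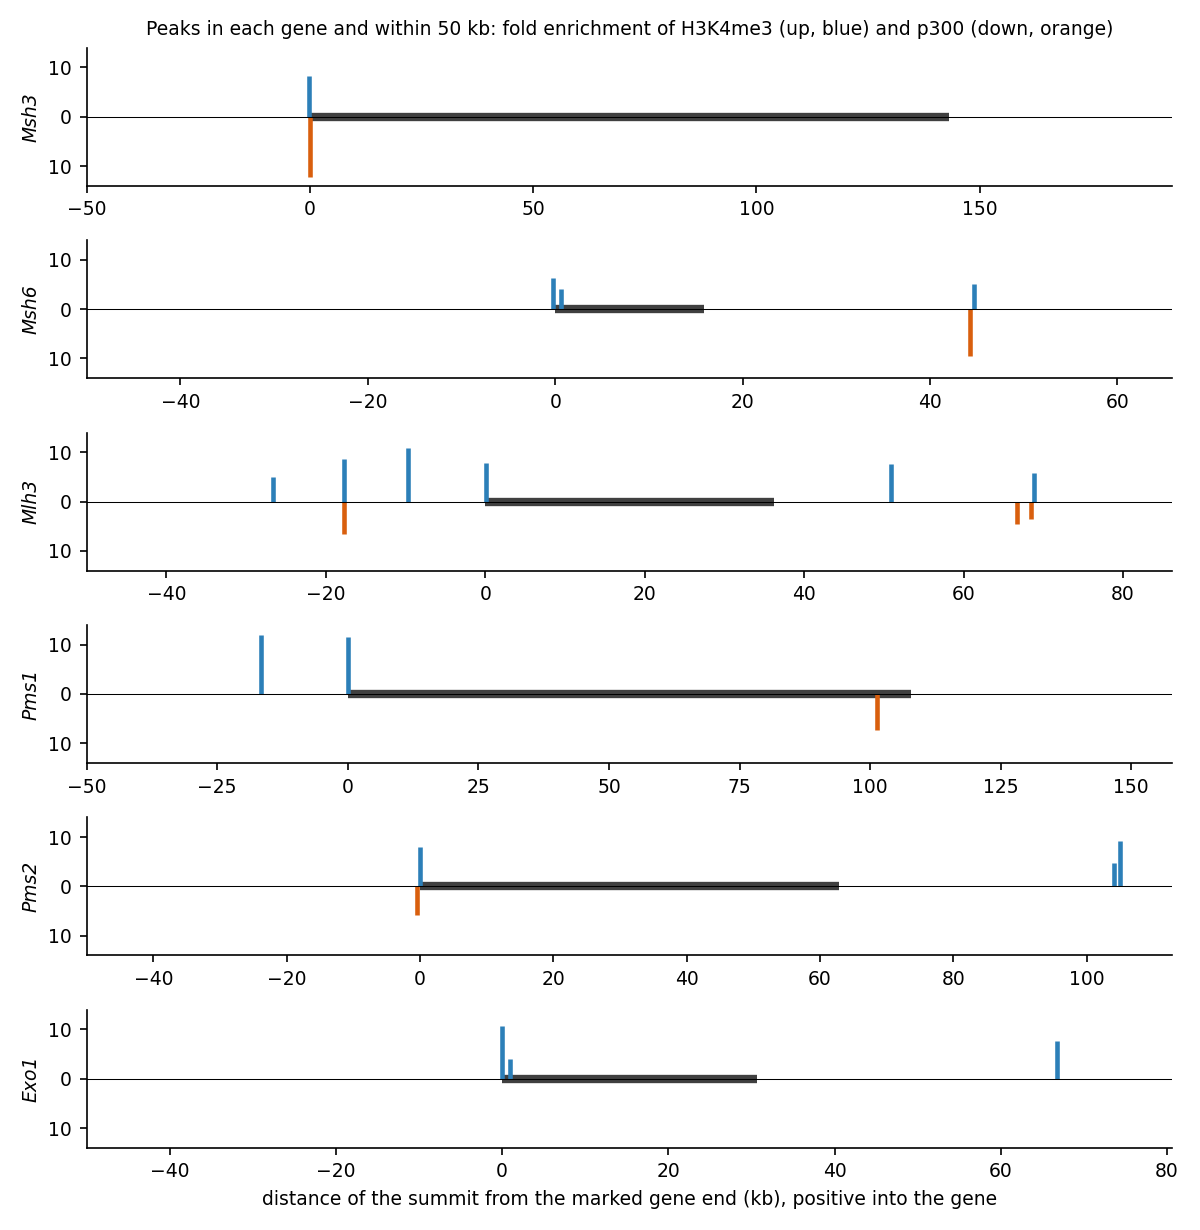
Peaks in each member and within 50 kb of it; the x axis is the distance of the summit from the marked end in kb (dark bar, the gene), and the height of each line is the fold enrichment, upward for H3K4me3 and downward for p300. p300 stood at the marked end only in Msh3 and Pms2, inside the gene in Pms1, beyond it in Msh6 and Mlh3, and nowhere in the window of Exo1.

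Of the 20 other genes of the pathway examined, 17 had H3K4me3 at an end, against 50.5% of protein-coding genes. p300 lay there in 2 of the 20, against 13.5% of protein-coding genes and 26.5% of those with H3K4me3 at an end. The median H3K4me3 fold of the 17 was 8.03 and their median −log10 q 76.9, beside 7.28 and 63.8 for all marked genes. Fan1, a nuclease that binds MutL proteins, had the highest fold at 12.4. Rfc3, a subunit of the clamp loader, had 11.3, Rpa3, a subunit of the single-strand binding protein RPA, 10.3, and Hmgb1, a chromatin protein that stimulates the reaction in vitro, 10.1.

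The clamp and loader genes were marked at 5 of 6, the RPA genes at 3 of 3, the polymerase delta and ligase genes at 5 of 5 and the accessory genes at 4 of 4. The exceptions in the list were Rfc1, the large loader subunit, which had 2 H3K4me3 peaks inside the gene, and the meiotic MutS homologues Msh4 and Msh5, which had none in the gene or at its ends. p300 at an end was found for Pcna, the replication clamp, at fold 9.14, and for Pold2, a polymerase delta subunit, at fold 3.83. The p300 fold at Msh3 was higher than either. In the gene or within 50 kb, 9 of the 20 had p300, near the share of 44.2% of all protein-coding genes. Msh4 and Msh5 were among these 9.

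By percentiles of fold, −log10 q and width, the pathway genes most like the median of the members were Rpa1, with a mean gap of 6.5 percentile points over the 3 measures, Pcna with 8.1 and Pold3 with 10.9. The H3K4me3 folds of these genes were 8.03, 7.86 and 8.75. This likeness rests on 1 library.

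**Figure D4:**
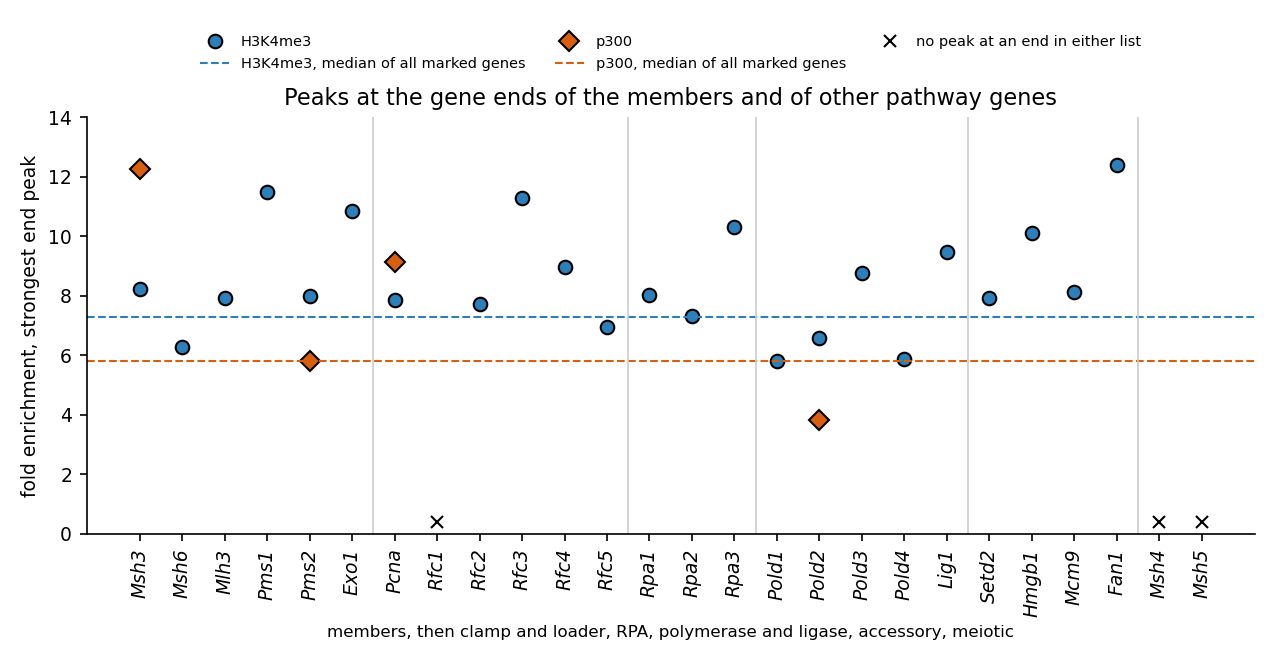
Fold enrichment of the strongest peak at a gene end for the members (left) and 20 other genes of the pathway; circles are H3K4me3, diamonds p300, crosses genes without an end peak in either list, and dashed lines the medians of all marked genes. The p300 diamond of Msh3 at 12.3 is the highest of the 4 p300 values, and Rfc1, Msh4 and Msh5 have no end peak.

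Promoter windows of 300 bases, 250 before and 50 after the start, were matched for 5 members, all but Exo1, and for 17492 protein-coding genes with 21263 windows. All 5 members were searched, and details are given for 4 of them, Msh6, Mlh3, Pms1 and Pms2. Mlh3 has 2 windows, whose starts lie 8 bases apart, and the values given are those of the first. In the second its CpG ratio was 1.1, at percentile 97.3. The windows of Msh6 and Pms1 were rich in G and C, with 71.7% and 68.3%, those of Pms2 and Mlh3 less so with 58.3% and 51.7%. The median was 56.3% over all windows and 61.0% over those of marked genes, the latter above both Pms2 and Mlh3. The observed over expected ratio of CpG was 0.976 in Msh6, 1.14 in Mlh3, 0.715 in Pms1 and 0.746 in Pms2, above the median of 0.567 in each. Among windows of H3K4me3-marked genes the median ratio was 0.766, between the members' values. Mlh3, with the fewest H3K4me3 reads and the lowest GC share of the 4, had a CpG ratio at percentile 98.6 of all windows.

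GC boxes matched in 4 of the 5 members searched, among them 5 times in Msh6, 2 times in Pms2 and once in Pms1, and not in Mlh3, where 46.2% of all windows and 64.2% of those of marked genes held at least 1 and 3.75% of all windows held 5 or more. In Msh6, 3 of the 5 follow each other at steps of 5 bases and overlap by 1. The single match in Pms1 lies after the start and is not in the printed bases. CCAAT matched in 4 of the 5 members searched and not in Msh3, 3 times in Pms2, 2 times in Pms1 and once each in Msh6 and Mlh3, where 38.2% of windows held at least 1 and 3.92% held 3 or more.

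The E2F words TTTCCCGC, TTTGGCGC, TTTCGCGC and TTTGCCGC, of cell cycle promoters, matched in 2 of the 5 members searched, Msh3 and Msh6, against 2.85% of windows and 4.11% of those of marked genes. In Msh6 there was 1 match, which begins 15 bases after the start. The ETS word CCGGAAG matched 2 times in Pms1, on both strands with overlap, and once in Pms2, where it overlaps 1 GC box and abuts the other. It was held by 11.6% of windows and 18.6% of those of marked genes. No match was found in the 5 members searched for the other motifs searched. The E-box CACGTG was held by 7.84% of all windows and the cAMP response element, spelled TGACGTCA, by 2.23%. The AP-1 word, spelled TGACTCA, was held by 4.66%, and the core of the M-box that the melanocyte factor MITF binds, spelled CATGTG, by 11.5%. The TATA box was searched as TATAAA and was held by 12.6%. The cell cycle element CHR was searched as TTTGAA and was held by 16%. The palindromic NRF1 site was held by 1.33%. Among windows of marked genes the E-box was held by 9.97%, the cAMP response element by 3.24% and the AP-1 word by 3.2%. There the M-box core was held by 8.36%, TATAAA by 6.65%, TTTGAA by 11.8% and the NRF1 site by 2.2%. All motifs were searched on both strands, and no match says only that these letters are not in these windows.

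**Figure D5:**
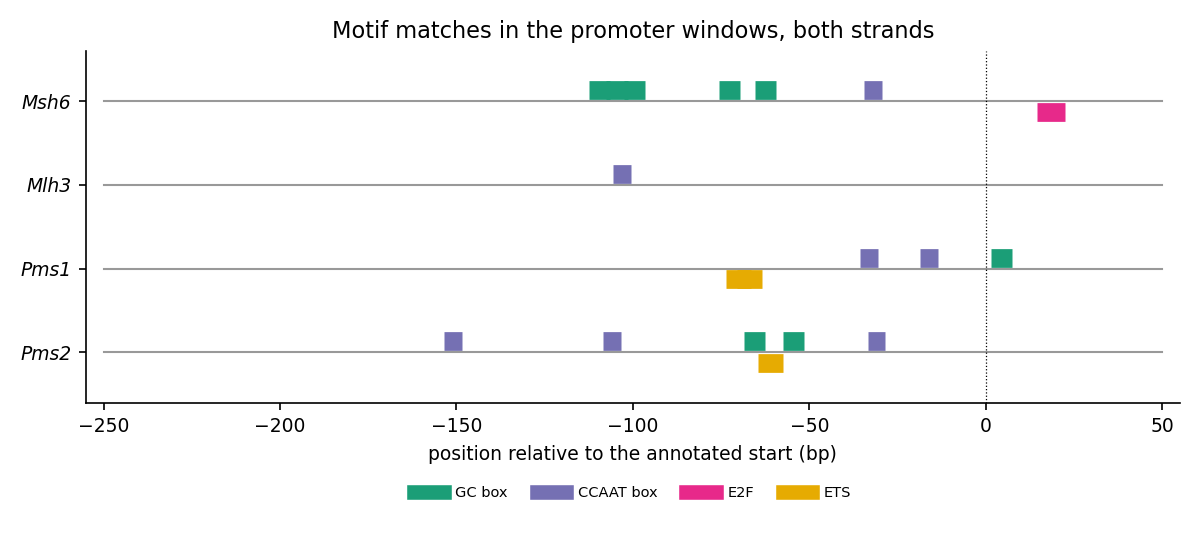
Positions of motif matches on either strand in the promoter windows of 4 members; the x axis is the distance from the annotated start in bp, and each block is a match. The GC boxes of Msh6 are clustered between 112 and 60 bases before the start, and Mlh3 has a single CCAAT match.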

How the data were processed

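CUT&Tag libraries of wild-type B16 cells for H3K4me3 and p300 were used, grouped by title. Per the labels' protocols, 1 µg of antibody, 18 PCR cycles and paired reads of 150 bp were used. The submitters' processing notes name build mm10, deepTools, Trim Galore, Picard 2.22.4 and Bowtie2 2.2.5. Not given in the sources used here were peak caller, control library and pooling.

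For each peak, the deposited narrowPeak lists give a score (the whole part of 10 times −log10 q for at least 99.99% of peaks), a fold ratio of the summit over a background, −log10 p, −log10 q and the summit's offset, all as deposited by the authors. After peaks off the nuclear chromosomes were left out, 27019 H3K4me3 and 6512 p300 peaks remained, with median summits of 80.0 and 39.0 reads. Read totals are unknown. Reads were solved as whole n from fold = (n + 1)/(background + 1) and a Poisson tail, which gave −log10 p within 0.002 for 99.98% and 99.97% of peaks. The solution and the overlaps were tested on simulated data.

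Gene spans and promoter windows came from RefSeq GRCm38.p6, which shares its main chromosomes with mm10. Overlap meant at least 1 bp. A percentile is a rank among the strongest end peaks of all marked genes. Members and lists were chosen with earlier results of these data known. The named genes are the members, genes sharing an end or a peak with them, the nearest gene of a nearby p300 peak and, of the 20 pathway genes, those without H3K4me3 at an end, those with p300 there and the 4 highest folds. Alternatives changed the windows, the part of each list used, the overlap and the motif strand. Python 3.11.15, pandas 2.3.3 and SciPy 1.17.1 were used. Some items are not reported here.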

Additional observations from a re-analysis of the deposited data

How the results depend on the processing

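Of 20 alternatives for the 6 counts of members or peaks, 19 stayed within 1.5 times the count reported. Only the upper part of the p300 list by −log10 q moved 1, taking p300 at a gene end from 2 members to 1, which was Msh3. In that part of the list 6.5% of protein-coding genes had p300 at an end. H3K4me3 at an end stayed at 6 with a narrower window, against 47.5% of protein-coding genes, and with one of 2 kb, against 53.5%. It stayed at 6 with the summit inside the window, against 47.7%, and in the upper part by fold, against 34.4%. It was 5, without Mlh3, in the upper part by −log10 q, against 42.3%. p300 in the gene or within 50 kb was found for 4 members with 20 kb, against 32.0% of protein-coding genes. It was found for 4 in the upper part by −log10 q, against 27.1%, and for 5 with 100 kb, against 55.9%. Of the 7 p300 peaks, 4 overlapped H3K4me3 by at least 50% of their length, and 4 had their summit in it. Choosing the strongest end peak by −log10 q changed no member's value. On the strand of the gene alone, GC boxes matched 1 time in Msh6, 1 in Pms2 and 0 in Msh3, and CCAAT matched 0 times in Msh6 and Mlh3, 1 in Pms1 and 2 in Pms2, so that CCAAT was found in 2 members in place of 4. No paired analysis was possible because each antibody had 1 library. Depth limits the peaks of 14 to 31 reads most, and absence from a list means not detectable at this depth.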
